A study of Mus musculus with 32 samples.

Results

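The 50 genes described here act in the G2 phase and in mitosis of the cell cycle, and they were followed in mouse embryonic fibroblasts that lack ATP-citrate lyase (ACLY) or carry human ACLY steered to one compartment or another. They were chosen by name from known functions in G2 and mitosis, with the requirement that the symbol be listed in both expression tables. Earlier results of these data were known when the genes were chosen, so counts set against all genes are not an independent test. All 50 of the 50 chosen symbols were listed, among 12053 genes measured in 1 mM glucose and 12791 measured in 10 mM glucose. A total of 11931 genes appeared in both tables. Every line compared carried the Acly knockout, in fibroblasts (MEFs) grown in DMEM with 10% calf serum. The Nuc line expressed mCherry-tagged human ACLY with added nuclear import sequences, the Cyto line the same protein with a nuclear export sequence, the WT line the tagged protein without either, and the KO line mCherry alone from the same vector. RNA was collected after 24 h in medium with 1 mM or 10 mM glucose. Each line had 4 libraries in each medium, except that 3 Cyto libraries in 10 mM glucose were analysed here, because the submitters describe the other as an anomaly that they set aside. The labels do not say whether a line is 1 clone or a pool, or which promoter drives the transgene. Nor do they say that libraries of the same line were grown apart, so p-values measure the spread among these libraries, which may be technical.

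ACLY cleaves citrate in the cytosol and the nucleus. It gives acetyl-CoA, the substrate of fatty acid synthesis and of histone acetylation. Genes of G2 and mitosis are transcribed late in the cell cycle. In quiescent and G1 cells the DREAM complex (p130 or p107, E2F4 or E2F5, and the MuvB core) represses them, and in S and G2 phase B-MYB and then FOXM1 join MuvB and activate them. Cyclin B with CDK1 then starts mitosis, and the anaphase-promoting complex with CDC20 ends it by destroying cyclin B and securin.

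MuvB reads the cell cycle genes homology region (CHR), whose core is TTTGAA, and NF-Y binds CCAAT boxes that often lie near it. The promoters of 6 members are printed, because 5 of them hold both elements and belong to members that fell in Cyto in both media, and Pttg1 holds neither and was the only member called lower in no line in either medium. Pttg1 is not typical of the 13 members whose promoter lacked TTTGAA. Against KO, 12 of these 13 fell in Cyto in 1 mM glucose and 11 in 10 mM glucose. Of the 29 members with TTTGAA, 29 and 28 fell. The printed promoters run from 250 bases before to 50 bases after the annotated start, are credited to RefSeq (GRCm38.p6), and were matched to the expression tables by symbol, since the submitters' processing notes name another build, GRCm39. They lie at chr9:70421505-70421804, minus strand (Ccnb2), chr10:69352863-69353162, minus strand (Cdk1), chr7:122159185-122159484, plus strand (Plk1), chr4:118437294-118437593, minus strand (Cdc20), chr11:99024140-99024439, minus strand (Top2a) and chr11:43425932-43426231, minus strand (Pttg1). Each is written 5′ to 3′ on the gene's strand, with TTTGAA and CCAAT in capitals, or TTCAAA and ATTGG where the match is on the other strand.
Ccnb2: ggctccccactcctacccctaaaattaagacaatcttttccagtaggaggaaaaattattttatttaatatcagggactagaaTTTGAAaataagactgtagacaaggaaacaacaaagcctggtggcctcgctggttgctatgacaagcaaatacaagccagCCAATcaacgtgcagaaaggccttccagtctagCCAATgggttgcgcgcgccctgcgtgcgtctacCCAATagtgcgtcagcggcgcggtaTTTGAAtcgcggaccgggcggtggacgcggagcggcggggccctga
Cdk1: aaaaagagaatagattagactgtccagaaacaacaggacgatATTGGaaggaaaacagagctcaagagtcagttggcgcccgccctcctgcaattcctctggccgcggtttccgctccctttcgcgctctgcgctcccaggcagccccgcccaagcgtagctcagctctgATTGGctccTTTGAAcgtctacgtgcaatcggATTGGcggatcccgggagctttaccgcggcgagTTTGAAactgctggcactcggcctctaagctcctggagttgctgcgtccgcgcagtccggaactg
Plk1: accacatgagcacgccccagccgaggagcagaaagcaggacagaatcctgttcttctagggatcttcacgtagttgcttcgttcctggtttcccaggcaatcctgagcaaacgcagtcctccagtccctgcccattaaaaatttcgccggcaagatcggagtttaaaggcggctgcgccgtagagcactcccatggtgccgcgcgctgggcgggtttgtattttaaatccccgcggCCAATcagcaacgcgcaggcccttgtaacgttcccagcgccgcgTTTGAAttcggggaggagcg
Cdc20: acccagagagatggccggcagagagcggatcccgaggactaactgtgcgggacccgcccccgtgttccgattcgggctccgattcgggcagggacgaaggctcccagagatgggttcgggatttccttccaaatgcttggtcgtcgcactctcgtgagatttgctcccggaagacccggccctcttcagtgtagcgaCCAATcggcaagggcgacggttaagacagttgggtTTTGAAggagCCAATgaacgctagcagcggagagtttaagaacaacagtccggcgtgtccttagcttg
Top2a: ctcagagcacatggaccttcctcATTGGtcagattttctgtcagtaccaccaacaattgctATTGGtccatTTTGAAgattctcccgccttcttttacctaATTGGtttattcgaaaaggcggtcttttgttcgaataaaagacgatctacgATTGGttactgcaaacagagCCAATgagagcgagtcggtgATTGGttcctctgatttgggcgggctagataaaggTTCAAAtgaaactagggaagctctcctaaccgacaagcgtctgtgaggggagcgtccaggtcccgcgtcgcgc
Pttg1: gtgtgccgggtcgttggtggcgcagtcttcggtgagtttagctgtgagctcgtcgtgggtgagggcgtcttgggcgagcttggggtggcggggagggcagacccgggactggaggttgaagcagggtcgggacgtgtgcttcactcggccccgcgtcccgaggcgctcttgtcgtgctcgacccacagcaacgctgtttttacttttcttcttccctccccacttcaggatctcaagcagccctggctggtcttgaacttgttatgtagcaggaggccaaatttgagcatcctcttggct

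A promoter was listed for 42 of the 50 members, and the others were Ccna2, Aurkb, Kif20a, Foxm1, Tpx2, Smc4, Dlgap5 and Cdc25c. TTTGAA, searched on both strands, occurred in 29 of the 42, or 69.0%, against 14.3% of 9205 genes listed in both expression tables and 20.2% of all 27025 genes with a promoter. CCAAT, also on both strands, occurred in 31 of the 42 (73.8%), against 43.7% and 41.1% of the same backgrounds. Both motifs together were found in 25 of the 42 (59.5%), against 6.02% and 7.97%. The variant TTCGAA was present in 5 of the 42 (11.9%), against 2.53% and 1.8%, and it cannot occupy the same bases as TTTGAA. Of 40 TTTGAA matches in members, 29 (72.5%) began within 50 bases of the start site, as in the Cdk1, Plk1 and Cdc20 sequences printed here, against 25.3% of 6737 matches in all promoters. Matches were counted over the 44 promoter entries of the 42 members. Prc1 and Ect2 have 2 overlapping entries each, so their sites count more than once. The 13 members without TTTGAA in this window were Ccnb1, Bub1, Cenpe, Birc5, Mybl2, Nusap1, Melk, Nek2, Ncaph, Pttg1, Nuf2, Sgo1 and Cdc25b. A match is a description of these letters and does not show that a factor was bound.

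The values are log2 of a normalised abundance, and each medium has its own normalised table. Linear sums per library were close to a common total but not equal, and were lowest in KO in both media. The 1 mM libraries were labelled batch 1 and the 10 mM libraries batch 2, so levels were compared within a medium only. No counts are in the tables, and sequencing depth is therefore unknown. Acly itself stood at 8.87 to 9.05 in Nuc, 10.41 to 10.55 in Cyto, 10.43 to 10.68 in WT and 5.19 to 5.43 in KO in 1 mM glucose. It stood at 8.98 to 9.24 in Nuc, 9.67 to 9.89 in Cyto, 10.14 to 10.28 in WT and 5.63 to 6.12 in KO in 10 mM glucose. The labels do not say which part of mouse Acly was removed or how reads of the human transgene were assigned, so the KO level is not a measure of remaining transcript. Of 12 fibroblast markers 11 were listed, among them Col1a1, Col1a2, Fn1, Sparc and Vim. Their summed linear level was 58000 to 63200 in Nuc, 36900 to 40400 in Cyto, 63000 to 72100 in WT and 38700 to 45700 in KO in 1 mM glucose. The same sum in 10 mM glucose was 54400 to 58100 in Nuc, 40000 to 43500 in Cyto, 48500 to 49900 in WT and 28000 to 29300 in KO. None of 7 epithelial markers was listed. Of 7 macrophage markers Cd68, Csf1r and Lyz2 were listed, with summed levels of at most 25.2 in 1 mM and 35.0 in 10 mM glucose, and endothelial markers summed to at most 8.28 and 10.9. The part of other cells in the results was not tested. Nuc library 1 in 1 mM glucose stood apart from the other Nuc libraries over the members, and the main counts that use it are also given without it. The shares of all genes are given with that library only, so the counts without it have no background of their own.

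The 50 genes were highest in KO and lowest in Cyto in both media. Each gene's values were centred on its mean over the libraries of a medium and then averaged over the 50 genes. In 1 mM glucose this mean was 0.14 ± 0.17 in Nuc, -0.62 ± 0.11 in Cyto, -0.13 ± 0.04 in WT and 0.61 ± 0.11 in KO (log2, SD over 4 libraries each). The Nuc libraries lay at -0.12, 0.20, 0.22 and 0.27, so that 3 of them were above every WT library and library 1 was not. In 10 mM glucose the mean was -0.03 ± 0.04 in Nuc, -0.34 ± 0.01 in Cyto, -0.09 ± 0.03 in WT and 0.39 ± 0.01 in KO (n = 4, 3, 4 and 4), and the KO libraries stood above, and the Cyto libraries below, all others. Gene by gene, KO had the highest and Cyto the lowest mean for 43 of the 50 in 1 mM glucose (41 without Nuc library 1), against 15.2% of all genes, and for 35 of the 50 in 10 mM glucose, against 10.1%. The full order KO, Nuc, WT, Cyto from high to low held for 38 members in 1 mM glucose (37 without Nuc library 1), against 6.69% of all genes, and for 20 in 10 mM glucose, against 4.75%. Another 15 had WT above Nuc in that order in 10 mM glucose. These are bulk RNA samples, in which fewer cells in G2 and mitosis and less of these RNAs per such cell cannot be told apart.

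**Figure D1:**
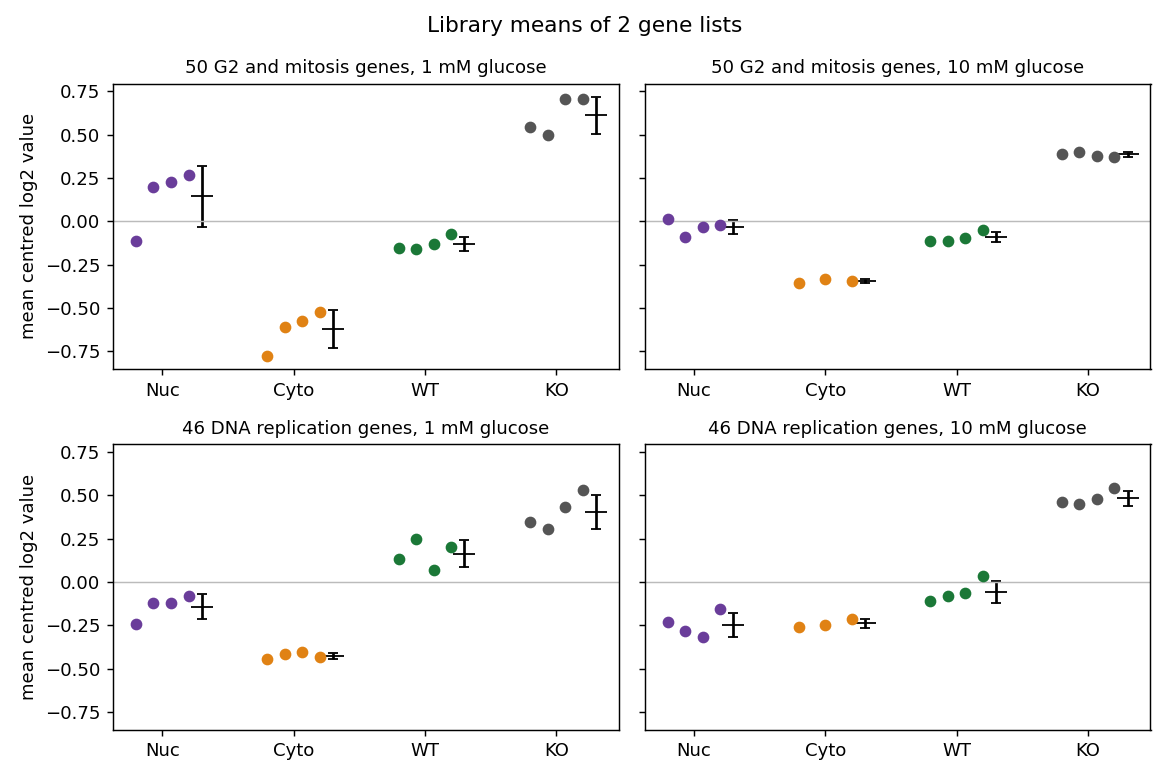
Mean centred log2 value of the 50 G2 and mitosis genes (top) and of 46 DNA replication genes (bottom) in every library, by line, in 1 mM (left) and 10 mM glucose (right); bars are the mean ± SD. The top panels show KO highest and Cyto lowest, and in the bottom right panel Nuc (-0.25) and Cyto (-0.24) lie at the same height.

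The first question is how the 50 genes in each ACLY line differed from those in the KO line. Each form of ACLY was carried by 1 line, so its effect and other differences between the lines cannot be told apart. The 3 comparisons share the KO libraries of their medium. In 1 mM glucose, 37 members fell and 0 rose in Nuc, 49 fell and 0 rose in Cyto, and 45 fell and 1 rose in WT (limma, Benjamini-Hochberg adjusted p under 0.05 over all genes). Over all genes, 29.5% fell and 30.5% rose in Nuc, 33.0% fell and 31.7% rose in Cyto, and 28.5% fell and 29.7% rose in WT. The median log2 difference of the members was -0.46 in Nuc, -1.27 in Cyto and -0.75 in WT, while that of all genes was -0.01, -0.03 and -0.00. Among the members called, 1 fell by at least 2-fold in Nuc, namely Kif4, 36 in Cyto and 11 in WT. The same held for 7.19% of all genes in Nuc, 10.1% in Cyto and 7.59% in WT. For 49 of the 50 genes every Cyto library was below every KO library, against 32.0% of all genes. Without Nuc library 1, 34 members were called in Nuc against 37 with it.

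Members fell in 10 mM glucose as well, by less at the median in Cyto and WT. There, 40 members fell and 1 rose in Nuc, 47 fell and 0 rose in Cyto, and 42 fell and 0 rose in WT (limma, adjusted p under 0.05). The shares of all genes were 22.7% lower and 22.7% higher in Nuc, 18.9% lower and 19.6% higher in Cyto, and 20.2% lower and 20.6% higher in WT. Median log2 differences were -0.44 in Nuc, -0.74 in Cyto and -0.43 in WT, with all-gene medians of -0.00 in each comparison. A fall of at least 2-fold was called for 1 member in Nuc, 9 in Cyto and 2 in WT, and for 4.59% of all genes in Nuc, 4.86% in Cyto and 4.49% in WT. In Nuc the share of members was below that of all genes in both media, and in WT it was also below in 10 mM glucose. All Cyto libraries were below all KO libraries for 47 of the 50 genes, against 20.2% of all genes. Over both media, 31 of the 50 genes were lower in all 6 comparisons with KO (29 without Nuc library 1 of 1 mM glucose), against 4.47% of the 11931 genes in both tables. The 3 comparisons of a medium share its KO libraries. Only Pttg1 was lower in none of the 6. In Cyto against KO the 29 members with TTTGAA had a median of -1.31 in 1 mM and -0.75 in 10 mM glucose, and the 13 without it -1.24 in 1 mM and -0.54 in 10 mM glucose, which is a description of these lists and was not tested.

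**Figure D2:**
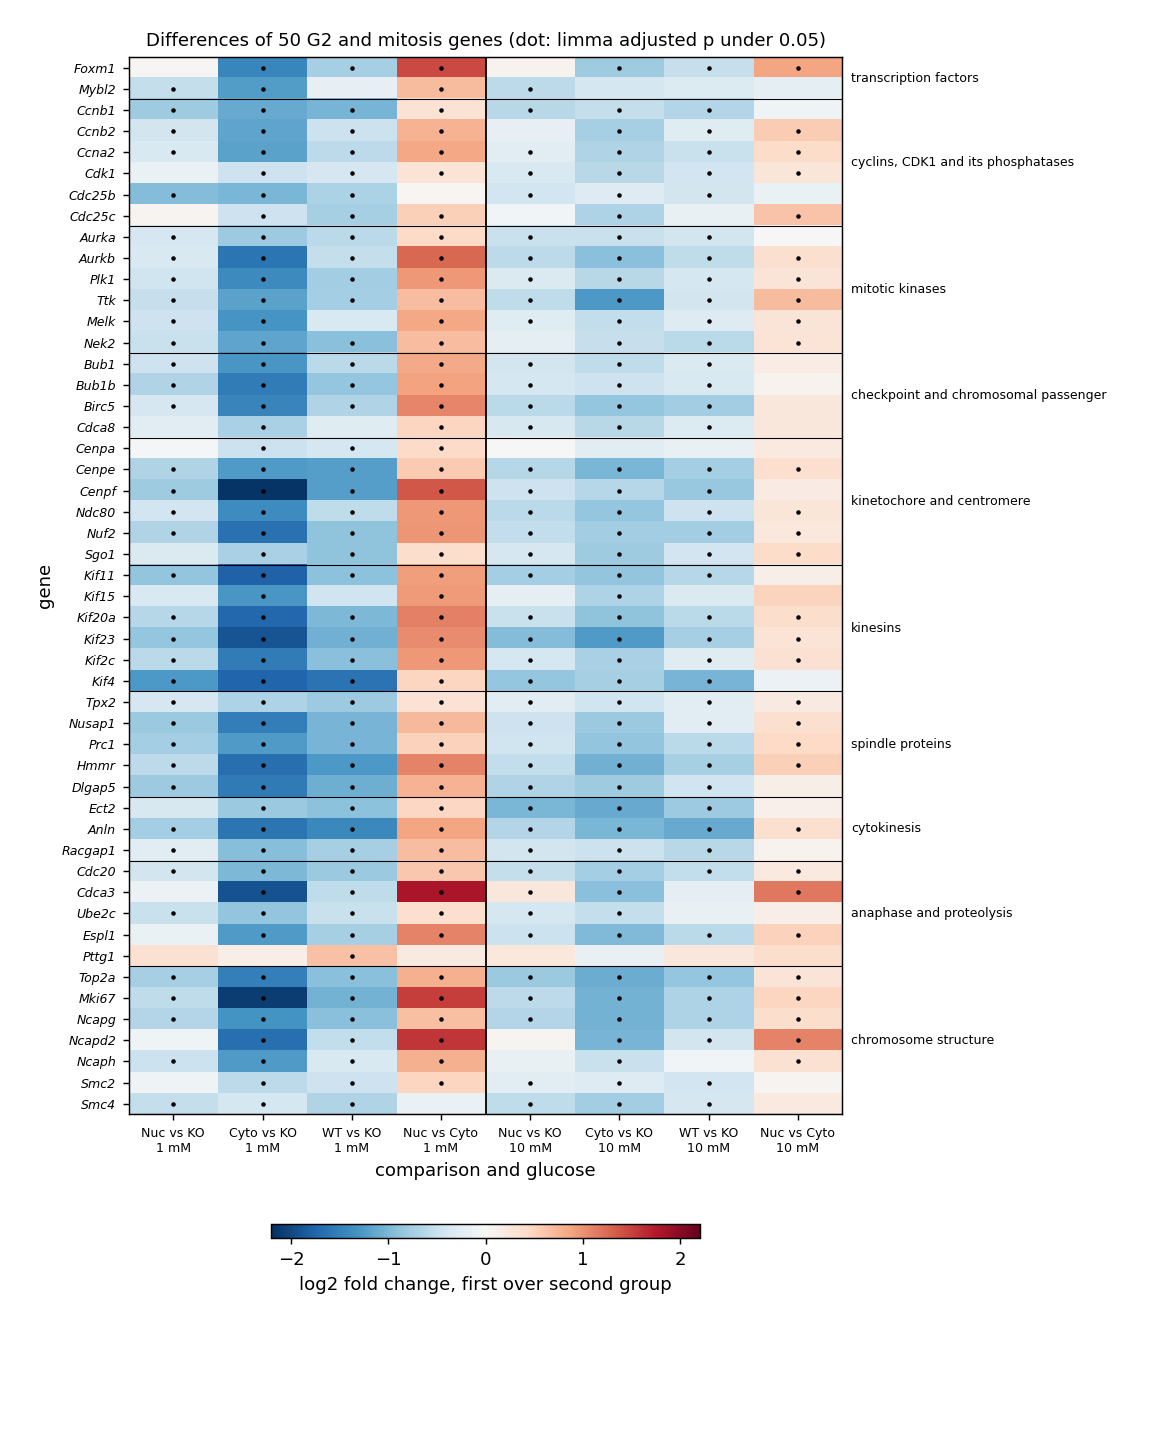
Log2 fold change of each of the 50 genes (rows, grouped by role) in 4 comparisons in 1 mM glucose (left) and 10 mM glucose (right); the colour scale is in log2 units and dots mark limma adjusted p under 0.05. Cyto against KO is the darkest blue column in 1 mM glucose, and Foxm1, Cdca3 and Ncapd2 are near white or pale red in Nuc against KO.

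The transcription factors, which act first, did not move alike. Foxm1, which encodes the forkhead activator of G2 and mitosis genes, was at 5.82, 6.13, 6.13 and 5.98 in Nuc, at 4.67, 4.58, 4.56 and 4.41 in Cyto, at 5.16, 4.86, 5.48 and 5.52 in WT and at 5.94, 5.73, 6.27 and 5.99 in KO in 1 mM glucose. The Cyto and WT libraries lay below all KO libraries, while Nuc and KO overlapped. The log2 difference from KO was 0.03 ± 0.14 in Nuc, -1.43 ± 0.14 in Cyto and -0.73 ± 0.14 in WT (± SE; limma adjusted p = 0.862, 8.64e-08 and 0.000214). Foxm1 levels in 10 mM glucose were at 7.24, 7.09, 7.11 and 6.98 in Nuc, at 6.21, 6.29 and 6.22 in Cyto, at 6.66, 6.50, 6.46 and 6.43 in WT and at 7.13, 7.11, 7.06 and 6.78 in KO, and again only Nuc overlapped KO. Mybl2, which encodes B-MYB, was at 3.09, 3.32, 3.12 and 2.89 in Nuc, at 2.38, 2.48, 2.54 and 2.21 in Cyto, at 3.26, 3.52, 3.21 and 3.80 in WT and at 3.39, 3.59, 3.91 and 3.62 in KO in 1 mM glucose. Its Nuc libraries lay below all KO libraries and its Cyto libraries were lower still, with a difference from KO of -1.23 ± 0.14 (limma adjusted p = 1.22e-06), and WT overlapped KO. Mybl2 in 10 mM glucose was at 4.22, 4.08, 4.78 and 3.87 in Nuc, at 4.66, 4.44 and 4.18 in Cyto, at 4.58, 4.43, 4.65 and 4.42 in WT and at 4.63, 4.93, 4.74 and 4.99 in KO, where each line overlapped KO and only Nuc passed the test (-0.58 ± 0.16, limma adjusted p = 0.00771).

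Of the 6 genes for cyclins, CDK1 and its activating phosphatases, 4 fell in Nuc, 6 in Cyto and 6 in WT against KO in 1 mM glucose, and 4 in Nuc, 6 in Cyto and 5 in WT fell in 10 mM glucose. Ccnb1, which encodes the main mitotic cyclin, was at 5.24, 5.52, 5.61 and 5.81 in Nuc, at 4.99, 5.21, 5.32 and 5.36 in Cyto, at 5.37, 5.17, 5.40 and 5.27 in WT and at 6.15, 6.20, 6.49 and 6.47 in KO in 1 mM glucose. Every library of the ACLY lines was below every KO library, by -0.78 ± 0.12 in Nuc, -1.11 ± 0.12 in Cyto and -1.03 ± 0.12 in WT on the log2 scale (limma adjusted p = 1.94e-05, 2.88e-07 and 1.21e-06). Ccnb1 in 10 mM glucose was at 6.74, 6.64, 6.59 and 6.58 in Nuc, at 6.72, 6.57 and 6.88 in Cyto, at 6.72, 6.57, 6.56 and 6.56 in WT and at 7.15, 7.35, 7.25 and 7.23 in KO, with the 3 ACLY lines overlapping one another below KO. Cdk1, the kinase that cyclin B activates, differed less than most members. Its levels were at 5.78, 5.87, 5.95 and 5.86 in Nuc, at 5.48, 5.56, 5.63 and 5.56 in Cyto, at 5.52, 5.83, 5.61 and 5.60 in WT and at 5.89, 5.89, 6.12 and 6.12 in KO in 1 mM glucose. Nuc overlapped KO, while Cyto and WT lay below it, with differences of -0.14 ± 0.08 in Nuc, -0.45 ± 0.08 in Cyto and -0.37 ± 0.08 in WT (limma adjusted p = 0.12, 7.24e-05 and 0.000641). Cdk1 in 10 mM glucose ranged over 6.94 to 7.28 in Nuc, 6.70 to 7.01 in Cyto, 6.91 to 7.04 in WT and 7.37 to 7.53 in KO, and the KO libraries were above all others. Cdc25b and Cdc25c, phosphatases that remove inhibitory phosphates from CDK1, had differences in Nuc against KO in 1 mM glucose of -0.96 ± 0.08 for Cdc25b and 0.05 ± 0.11 for Cdc25c (limma adjusted p = 3.77e-08 and 0.705), and the gap between these genes was not tested. Ccnb2 and Ccna2, for a second B-type cyclin and for cyclin A, fell by 2.23-fold and 2.27-fold in Cyto in 1 mM glucose.

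The 6 mitotic kinases fell in all 3 ACLY lines with few exceptions, 6 in Nuc, 6 in Cyto and 5 in WT in 1 mM glucose, with 5 in Nuc, 6 in Cyto and 6 in WT in 10 mM glucose. Plk1, the polo-like kinase of mitotic entry and spindle assembly, was at 4.72, 5.46, 5.34 and 5.46 in Nuc, at 4.30, 4.16, 4.37 and 4.32 in Cyto, at 4.99, 4.86, 4.87 and 5.00 in WT and at 5.76, 5.55, 5.74 and 5.69 in KO in 1 mM glucose. The lowest Nuc value, library 1, stood within the range between Cyto and WT, and the other 3 Nuc libraries lay above all WT libraries. The log2 differences from KO were -0.44 ± 0.13 in Nuc, -1.40 ± 0.13 in Cyto and -0.76 ± 0.13 in WT (limma adjusted p = 0.00595, 4.71e-08 and 7.49e-05). Plk1 in 10 mM glucose was at 6.12, 6.07, 6.23 and 6.22 in Nuc, at 6.02, 5.85 and 5.76 in Cyto, at 6.07, 6.05, 6.08 and 6.20 in WT and at 6.41, 6.40, 6.56 and 6.57 in KO, with no library of the ACLY lines reaching the KO range. Aurkb, the kinase of the chromosomal passenger complex, was at 4.45, 4.93, 4.66 and 4.86 in Nuc, at 3.54, 3.29, 3.67 and 3.31 in Cyto, at 4.46, 4.64, 4.54 and 4.53 in WT and at 5.06, 4.86, 5.17 and 5.15 in KO in 1 mM glucose. The highest Nuc library reached into the KO range, and Cyto was 3.04-fold lower than KO with no overlap (-1.61 ± 0.11, limma adjusted p = 2.01e-09). Aurkb in 10 mM glucose was at 5.66, 5.69, 5.68 and 5.70 in Nuc, at 5.41, 5.23 and 5.37 in Cyto, at 5.64, 5.73, 5.65 and 5.75 in WT and at 6.15, 6.36, 6.20 and 6.32 in KO, and Nuc and WT overlapped each other between Cyto and KO. Aurka, the spindle-pole Aurora kinase, Ttk, the kinase of the spindle checkpoint, Melk, a kinase that peaks in mitosis, and Nek2, the kinase of centrosome separation, fell in Cyto by 1.74-, 2.27-, 2.47- and 2.24-fold in 1 mM glucose. Ttk was the member with the lowest log2 difference in Cyto against KO in 10 mM glucose, at -1.27 ± 0.12 (limma adjusted p = 6.08e-07).

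The checkpoint and chromosomal passenger genes comprise Bub1 and Bub1b, which hold anaphase until chromosomes are attached, and Birc5 and Cdca8, which encode survivin and borealin. Of these 4, 3 fell in Nuc, 4 in Cyto and 3 in WT in 1 mM glucose, and 4 fell in each line in 10 mM glucose. The Cyto difference ranged from -1.53 for Bub1b to -0.71 for Cdca8 in 1 mM glucose and from -0.84 for Birc5 to -0.45 for Bub1b in 10 mM glucose.

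Among 6 kinetochore and centromere genes, 4 fell in Nuc, 6 in Cyto and 6 in WT in 1 mM glucose and 5 fell in each line in 10 mM glucose. Cenpf, which encodes a large protein of the outer kinetochore, had the lowest log2 difference of all members in Cyto against KO in 1 mM glucose. It was at 4.51, 4.89, 5.19 and 4.91 in Nuc, at 3.08, 3.66, 3.12 and 4.16 in Cyto, at 4.62, 3.99, 4.70 and 4.48 in WT and at 5.68, 5.53, 5.82 and 5.61 in KO in 1 mM glucose. Although Cyto ranged over more than a unit among its 4 libraries, all 4 were below all KO libraries, by -2.16 ± 0.21 or 4.46-fold (limma adjusted p = 1.16e-07). Cenpf in 10 mM glucose was at 7.03, 6.77, 6.85 and 7.02 in Nuc, at 7.05, 6.58 and 6.60 in Cyto, at 6.50, 6.64, 6.59 and 6.45 in WT and at 7.55, 7.58, 7.24 and 7.13 in KO, with Cyto only 1.55-fold lower than KO (limma adjusted p = 0.000759). Cenpe, the kinetochore motor, and Ndc80 and Nuf2, subunits of the complex that grips microtubules, fell by 2.37-, 2.6- and 3.13-fold in Cyto in 1 mM glucose. Sgo1, which protects centromeric cohesion, fell by 1.64-fold. Cenpa, the centromeric histone H3 variant, passed no test against KO in 10 mM glucose, at -0.01 ± 0.10 in Nuc, -0.22 ± 0.11 in Cyto and -0.17 ± 0.10 in WT (limma adjusted p = 0.96, 0.118 and 0.199).

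The kinesins had the lowest median of the 10 role groups in Cyto in 1 mM glucose, at -1.74, and all 6 fell there. Of the 6, 5 fell in Nuc and 5 in WT in 1 mM glucose, and 5 in Nuc, 6 in Cyto and 5 in WT fell in 10 mM glucose. Kif11, the motor that pushes spindle poles apart, was at 5.19, 5.55, 5.67 and 5.64 in Nuc, at 4.36, 4.60, 4.62 and 4.80 in Cyto, at 5.50, 5.18, 5.52 and 5.69 in WT and at 6.26, 6.27, 6.51 and 6.44 in KO in 1 mM glucose. The Nuc and WT libraries overlapped each other, with Cyto below them and KO above. Differences from KO were -0.86 ± 0.12 in Nuc, -1.78 ± 0.12 in Cyto and -0.90 ± 0.12 in WT (limma adjusted p = 1.32e-05, 1.81e-09 and 9.81e-06). Kif11 in 10 mM glucose was at 7.02, 6.91, 6.94 and 6.86 in Nuc, at 6.70, 6.88 and 6.85 in Cyto, at 7.07, 7.04, 7.07 and 7.02 in WT and at 7.81, 7.74, 7.60 and 7.57 in KO, with Cyto and Nuc overlapping, WT at or just above the highest Nuc value, and KO above all. Kif23, a subunit of the centralspindlin motor of cytokinesis, fell 3.72-fold in Cyto in 1 mM glucose and 2.39-fold in 10 mM glucose. Kif20a, a motor of the central spindle, and Kif2c, which depolymerises microtubules at centromeres, fell 3.33- and 2.91-fold in Cyto in 1 mM glucose. Kif4, the chromokinesin, had the lowest difference of all members in Nuc (-1.27 ± 0.11, limma adjusted p = 4.55e-08) and in WT (-1.63 ± 0.11, limma adjusted p = 3.51e-09) in 1 mM glucose. Kif15, a spindle motor with the largest spread of any member in Nuc in 1 mM glucose (SD 0.68, n = 4), passed the test against KO in Cyto only.

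**Figure D3:**
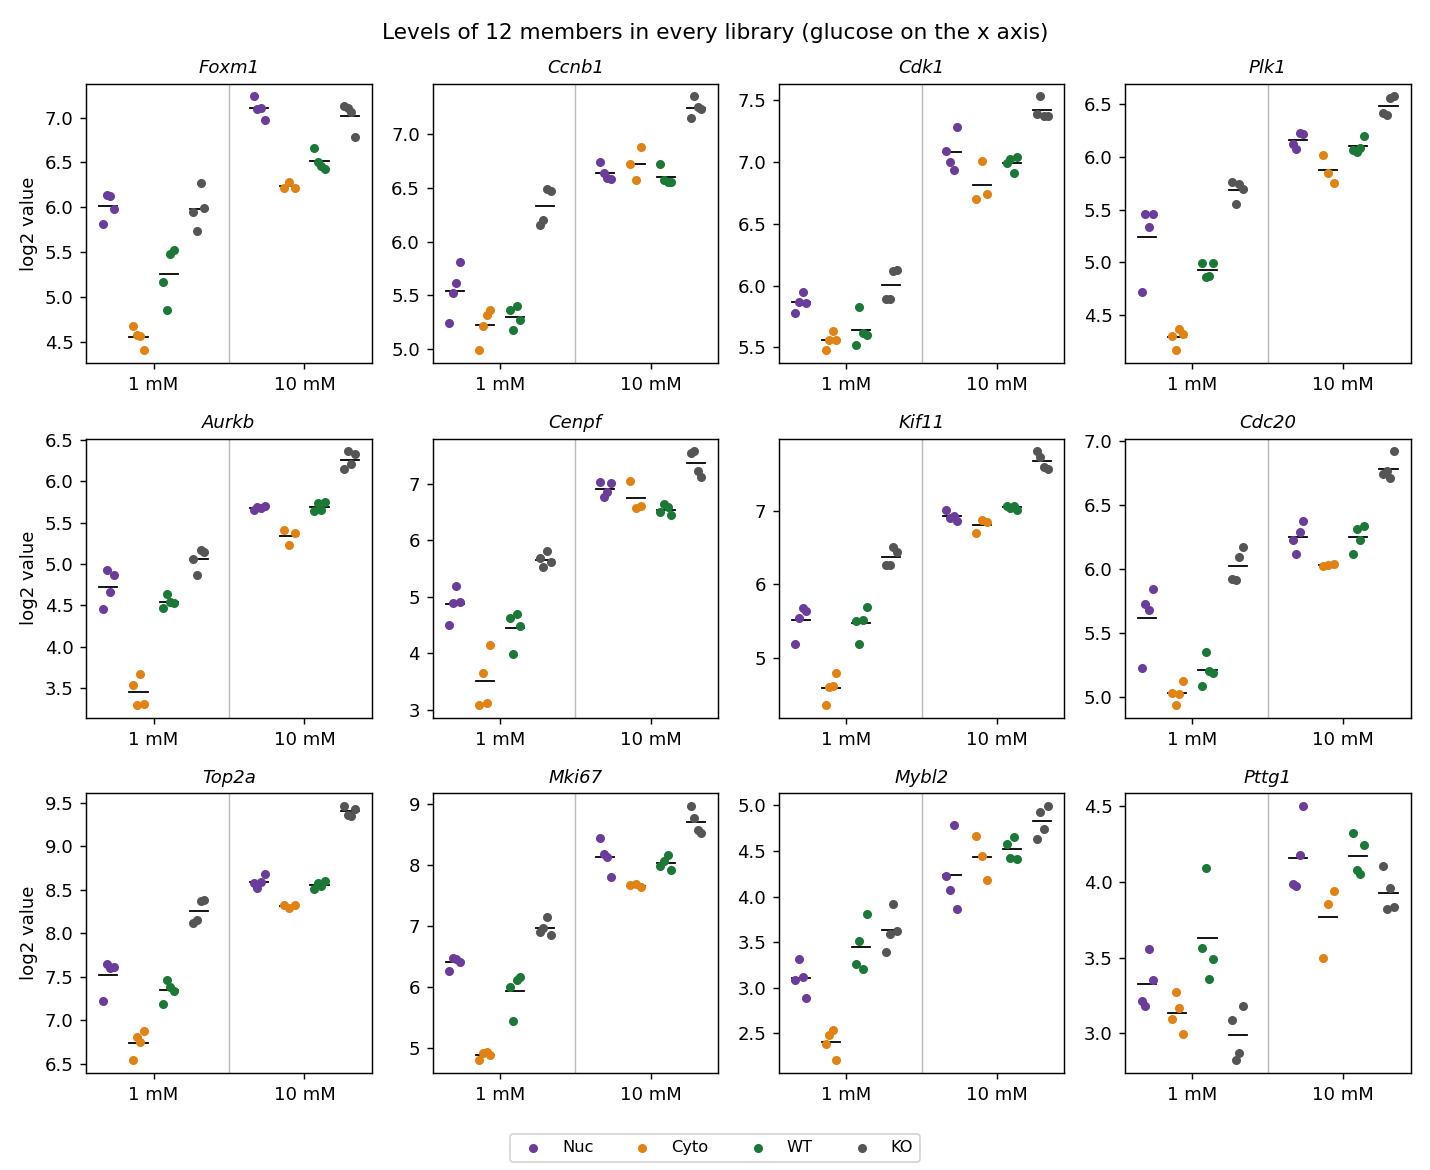
Log2 value of 12 of the 50 genes in every library (points) with the group mean (line), for Nuc, Cyto, WT and KO from left to right in 1 mM and then in 10 mM glucose. Cyto is lowest and KO highest for most genes in 1 mM glucose, Foxm1 in Nuc overlaps KO, and Pttg1 has WT above KO in 1 mM glucose.

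The 5 spindle genes fell in every comparison with KO in both media. They encode Tpx2, an activator of Aurora A on spindle microtubules, Nusap1, a microtubule bundler, Prc1, the crosslinker of the central spindle, Hmmr, a spindle-pole protein, and Dlgap5, a stabiliser of kinetochore fibres. Hmmr had the lowest WT difference of the 5 in 1 mM glucose, at -1.26 ± 0.15 (limma adjusted p = 3.02e-06). Of 3 cytokinesis genes, 2 fell in Nuc, 3 in Cyto and 3 in WT in 1 mM glucose, and 3 fell in each line in 10 mM glucose. Anln, for the scaffold anillin, was 2.69-fold lower in WT in 1 mM glucose and 2.15-fold lower in 10 mM glucose (-1.10 ± 0.07, limma adjusted p = 3.04e-09). Ect2, the exchange factor that activates RhoA at the cleavage site, had the lowest Nuc difference in 10 mM glucose, -1.01 ± 0.17 (limma adjusted p = 0.000136). Racgap1, the partner of Kif23 in centralspindlin, fell 1.91-fold in Cyto in 1 mM glucose.

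The 5 genes of anaphase and proteolysis did not move as one. Against KO, 2 fell in Nuc, 4 in Cyto and 4 in WT in 1 mM glucose, and 3 in Nuc, 4 in Cyto and 2 in WT fell in 10 mM glucose. Cdc20, the activator of the anaphase-promoting complex, was at 5.23, 5.73, 5.68 and 5.85 in Nuc, at 5.04, 4.94, 5.03 and 5.13 in Cyto, at 5.09, 5.36, 5.21 and 5.19 in WT and at 5.92, 5.92, 6.10 and 6.18 in KO in 1 mM glucose. All KO libraries were above all others, and the difference was -0.41 ± 0.11 in Nuc, -0.99 ± 0.11 in Cyto and -0.82 ± 0.11 in WT (limma adjusted p = 0.00389, 4.76e-07 and 7.25e-06). Cdc20 in 10 mM glucose was at 6.23, 6.12, 6.29 and 6.38 in Nuc, at 6.02, 6.04 and 6.04 in Cyto, at 6.12, 6.31, 6.23 and 6.34 in WT and at 6.75, 6.76, 6.71 and 6.92 in KO, in the order Cyto, then Nuc and WT together, then KO. Pttg1, which encodes securin, the inhibitor of separase, was at 3.21, 3.18, 3.56 and 3.36 in Nuc, at 3.10, 3.27, 3.17 and 2.99 in Cyto, at 3.57, 4.09, 3.36 and 3.49 in WT and at 3.09, 2.82, 2.87 and 3.18 in KO in 1 mM glucose. Its WT libraries were all above its KO libraries, by 0.64 ± 0.14 (limma adjusted p = 0.00122), and the Nuc and Cyto libraries met or overlapped the KO range. Pttg1 in 10 mM glucose was at 3.98, 3.97, 4.18 and 4.50 in Nuc, at 3.50, 3.85 and 3.94 in Cyto, at 4.32, 4.08, 4.05 and 4.24 in WT and at 4.10, 3.82, 3.96 and 3.83 in KO, with no call against KO. Espl1, separase itself, fell by 2.38-fold in Cyto in 1 mM glucose and was at -0.15 ± 0.14 in Nuc (limma adjusted p = 0.344). Ube2c, the ubiquitin-conjugating enzyme of the anaphase-promoting complex, fell 1.83-fold in Cyto. Cdca3, which promotes mitotic entry, was at 6.90, 6.59, 6.90 and 7.06 in Nuc, at 5.74, 5.77 and 5.59 in Cyto, at 6.29, 6.41, 6.46 and 6.46 in WT and at 6.45, 6.53, 6.69 and 6.80 in KO in 10 mM glucose, and it was the only member called higher in Nuc (0.25 ± 0.10, limma adjusted p = 0.0464), with overlapping libraries. That call was lost without Nuc library 1, 3 or 4 or KO library 1, 2 or 3 (limma adjusted p of 0.054 to 0.139).

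Of 7 genes of chromosome structure, 5 fell in Nuc, 7 in Cyto and 7 in WT in 1 mM glucose and 5 in Nuc, 7 in Cyto and 6 in WT fell in 10 mM glucose. Top2a, the topoisomerase that untangles sister chromatids, was at 7.22, 7.65, 7.60 and 7.61 in Nuc, at 6.54, 6.81, 6.75 and 6.88 in Cyto, at 7.19, 7.47, 7.38 and 7.33 in WT and at 8.11, 8.15, 8.37 and 8.38 in KO in 1 mM glucose. No ACLY library reached the KO range, and Nuc library 1 was the lowest of its group. The differences were -0.74 ± 0.10 in Nuc, -1.51 ± 0.10 in Cyto and -0.91 ± 0.10 in WT (limma adjusted p = 8.09e-06, 1.12e-09 and 9.05e-07). Top2a in 10 mM glucose was at 8.58, 8.52, 8.59 and 8.68 in Nuc, at 8.32, 8.29 and 8.33 in Cyto, at 8.51, 8.58, 8.54 and 8.61 in WT and at 9.46, 9.36, 9.35 and 9.44 in KO, with Nuc and WT overlapping, Cyto below both and KO above. Mki67, the surface protein of mitotic chromosomes known as Ki-67, was at 6.26, 6.47, 6.47 and 6.42 in Nuc, at 4.81, 4.92, 4.94 and 4.89 in Cyto, at 6.01, 5.45, 6.12 and 6.17 in WT and at 6.91, 6.97, 7.15 and 6.85 in KO in 1 mM glucose. The 4 lines did not overlap, in the order Cyto, WT, Nuc, KO, and Cyto was 4.23-fold lower than KO (-2.08 ± 0.12, limma adjusted p = 2.24e-10). Mki67 in 10 mM glucose ranged over 7.81 to 8.45 in Nuc, 7.64 to 7.69 in Cyto, 7.92 to 8.16 in WT and 8.54 to 8.97 in KO. Cyto and WT remained apart there, while Nuc overlapped WT. Smc2, Smc4, Ncapd2, Ncapg and Ncaph encode condensin, which compacts mitotic chromosomes, and in Cyto in 1 mM glucose they ranged from -1.67 for Ncapd2 to -0.38 for Smc4.

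The design also sets Nuc against Cyto, lines in which ACLY was steered to different compartments. Acly as measured was also lower in every Nuc library than in every Cyto or WT library, in both media. Compartment, Acly level and line therefore cannot be told apart when Nuc is compared with Cyto or WT. Nuc exceeded Cyto in 1 mM glucose for 47 members and was lower for 0, against 20.4% and 20.5% of all genes, with a median log2 difference of 0.76 (limma, adjusted p under 0.05; 47 without Nuc library 1). The members outside the call were Smc4 (-0.14), Cdc25b (0.05) and Pttg1 (0.19). The highest differences were those of Cdca3 (1.80 ± 0.16, limma adjusted p = 1.97e-07), Ncapd2 (1.58 ± 0.08, limma adjusted p = 1.12e-10) and Mki67 (1.52 ± 0.12, limma adjusted p = 3.98e-08). For 37 members all Nuc libraries were above all Cyto libraries, against 22.0% of all genes. Without Nuc library 1 the count was 46, but fewer libraries overlap less easily and no all-gene share is given for that setting. In 10 mM glucose 30 members were higher and 0 lower in Nuc than in Cyto, against 15.3% and 15.7% of all genes, with a median of 0.28. Cdca3 (1.16), Ncapd2 (1.09) and Foxm1 (0.87) had the highest differences there. Mitotic kinases, kinesins and spindle genes were all called higher in Nuc than in Cyto in 1 mM glucose. Their group medians were 0.76, 0.94 and 0.71, against 0.29, 0.32 and 0.35 in 10 mM glucose. The checkpoint, kinetochore, cytokinesis and transcription factor genes were also all called higher in 1 mM glucose. In 10 mM glucose 5 of 6 mitotic kinases, 3 of 6 kinesins and 4 of 5 spindle genes were called higher.

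Set against WT, Nuc was higher for part of the members in 1 mM glucose and Cyto was lower in both media. In 1 mM glucose, 21 members were higher and 1, Cdc25b, lower in Nuc than in WT, against 19.7% and 19.4% of all genes, with a median of 0.27. The highest were Cdc25c (0.79 ± 0.11, limma adjusted p = 4.4e-05), Foxm1 (0.76 ± 0.14, limma adjusted p = 0.000307) and Hmmr (0.69 ± 0.15, limma adjusted p = 0.00215), and without Nuc library 1 the number called was 30 against 22. Cyto was lower than WT for 33 members and higher for 1, Smc4, against 27.5% and 25.7% of all genes, with a median of -0.50. Cdca3 (-1.37), Ncapd2 (-1.12) and Aurkb (-1.09) were lowest. In 10 mM glucose 9 members were higher and 1, Nusap1, lower in Nuc than in WT, against 15.0% and 13.8% of all genes, with a median of 0.04, so the count is near the background. Cyto was lower than WT for 29 members and higher for 0, against 15.6% and 15.9% of all genes, with a median of -0.28. In 10 mM glucose, 6 members were called in Nuc against WT without WT library 1, and 19 in Cyto against WT without Cyto library 1.

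Whether these differences themselves changed with glucose was asked as the difference in 1 mM minus that in 10 mM glucose over the 11931 genes listed in both tables. The fall in Cyto was deeper in 1 mM glucose. Against KO, 31 members had a lower and 1, Smc4, a higher difference in 1 mM glucose for Cyto, against 23.2% and 21.5% of all genes, with a median of -0.60 (limma, adjusted p under 0.05 for the interaction). For WT against KO 13 members were lower and 0 higher, against 12.7% and 13.5% of all genes, with a median of -0.28. For Nuc against KO 2 members, Kif4 and Cdc25b, were lower and 1, Ect2, higher, against 18.7% and 17.8% of all genes, with a median of -0.06. Without Nuc library 1 of 1 mM glucose the number called was again 3. Between Nuc and Cyto 29 members had a higher and 0 a lower difference in 1 mM glucose, against 9.47% and 9.48% of all genes, with a median of 0.47, and 34 were called without that library. Cenpf changed most in Cyto, by -1.53 ± 0.26 (limma adjusted p = 2.67e-05), followed by Bub1b (-1.08 ± 0.15, limma adjusted p = 6.68e-07) and Mki67 (-1.03 ± 0.18, limma adjusted p = 3.05e-05). The media were labelled as separate batches and held in separate normalised tables, so glucose and batch cannot be told apart in these interactions. The Cyto difference from KO also differed between media over whole chromosomes, as given below for chromosomes 3 and 18.

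**Figure D4:**
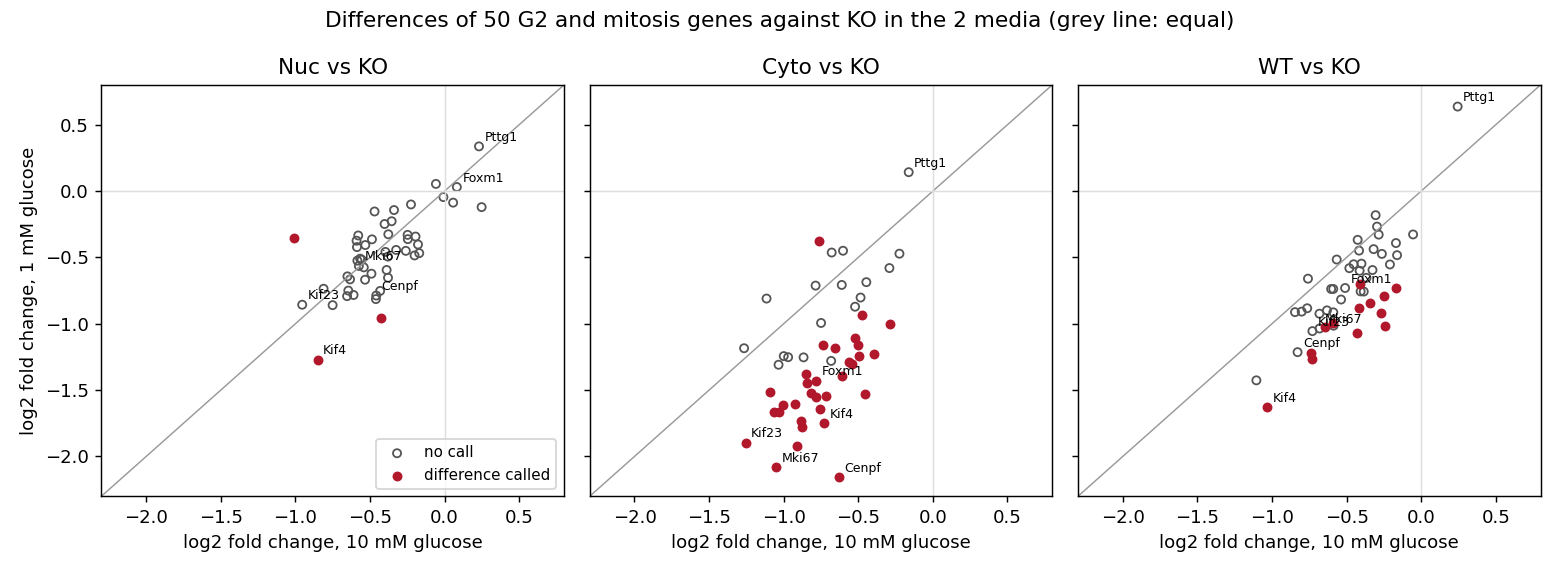
Log2 fold change of each of the 50 genes against KO in 10 mM glucose (x axis) and 1 mM glucose (y axis) for Nuc, Cyto and WT; the grey line marks equal differences and filled points passed the limma interaction test. Most Cyto points lie below the line, with Cenpf and Mki67 lowest, and Nuc points lie around it.

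A further 65 genes of G2 and mitosis were followed as a second list, also chosen with earlier results of these data known. Against KO, 43 fell and 2 rose in Nuc, 57 fell and 3 rose in Cyto and 54 fell and 1 rose in WT in 1 mM glucose (medians -0.40 in Nuc, -1.10 in Cyto and -0.64 in WT). In 10 mM glucose 51 fell in Nuc, 61 in Cyto and 53 in WT and 1 rose in each line. Hjurp, the chaperone of CENP-A, was -1.15 in Nuc, -1.53 in Cyto and -1.47 in WT in 1 mM glucose, and Ckap2, a spindle protein, was -2.10 ± 0.11 in Cyto (limma adjusted p = 8.03e-11). Genes of DNA replication, which act earlier in the cycle, were also lower than in KO but were ordered otherwise among the ACLY lines. Of 46, 35 fell and 3 rose in Nuc, 41 fell and 0 rose in Cyto and 21 fell and 3 rose in WT in 1 mM glucose. Falls in 10 mM glucose numbered 41 in Nuc, 36 in Cyto and 35 in WT, and 0 rose. Over all genes against KO, 29.5% fell in Nuc, 33.0% in Cyto and 28.5% in WT in 1 mM glucose. The shares that rose there were 30.5% in Nuc, 31.7% in Cyto and 29.7% in WT. In 10 mM glucose 22.7% of all genes fell in Nuc, 18.9% in Cyto and 20.2% in WT, while 22.7%, 19.6% and 20.6% rose. Relative to WT, replication genes in Nuc fell for 24 and rose for 2 in 1 mM glucose (median -0.33) and fell for 21 and rose for 2 in 10 mM glucose (median -0.24), whereas the 50 G2 and mitosis genes had medians of 0.27 and 0.04 there. Over all genes in Nuc against WT, 19.4% fell and 19.7% rose in 1 mM glucose. In 10 mM glucose 13.8% fell and 15.0% rose. Mcm4, a subunit of the replicative helicase, was -1.06 ± 0.06 in 1 mM glucose and -0.67 ± 0.05 in 10 mM glucose (limma adjusted p = 1.22e-09 and 7.04e-08). The library mean of the 50 genes minus that of the 46 replication genes was 0.13 to 0.35 in Nuc, -0.33 to -0.10 in Cyto, -0.41 to -0.20 in WT and 0.17 to 0.27 in KO in 1 mM glucose. It was 0.13 to 0.28 in Nuc, -0.14 to -0.08 in Cyto, -0.09 to -0.00 in WT and -0.17 to -0.05 in KO in 10 mM glucose, so that every Nuc library stood above every other library there.

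The DREAM and E2F regulators that were called went in both directions in 1 mM glucose, and more of them fell than rose in 10 mM glucose. Of 20 DREAM and E2F genes listed in 1 mM glucose, 6 fell and 5 rose in Nuc, 6 fell and 4 rose in Cyto and 7 fell and 5 rose in WT against KO. Over all genes in 1 mM glucose, 29.5% fell and 30.5% rose in Nuc, and 33.0% fell and 31.7% rose in Cyto. For WT 28.5% fell and 29.7% rose, so these list counts are near the background. Of 21 DREAM and E2F genes listed in 10 mM glucose, 7 fell and 1 rose in Nuc, 8 fell and 2 rose in Cyto and 5 fell and 1 rose in WT. Over all genes in 10 mM glucose, 22.7% fell and 22.7% rose in Nuc, and 18.9% fell and 19.6% rose in Cyto. For WT 20.2% fell and 20.6% rose. E2f6, a repressor of the E2F family, averaged 3.58 in Nuc, 4.65 in Cyto, 2.48 in WT and 2.71 in KO in 1 mM glucose. The Nuc and Cyto differences from KO were 0.87 ± 0.10 and 1.94 ± 0.10 (limma adjusted p = 9.83e-07 and 5.28e-11). In 10 mM glucose they were 1.08 ± 0.16 and 1.78 ± 0.17 (limma adjusted p = 4.31e-05 and 7.92e-07). The WT mean there was 2.62, against 3.09 in KO, so E2f6 was not above KO in WT in either medium. E2f8, another repressor of the family, was -2.61 ± 0.19 in Cyto in 1 mM glucose (limma adjusted p = 2.98e-09). Of 12 CDK inhibitors and D cyclins listed, 5 fell and 3 rose in Nuc, 8 fell and 2 rose in Cyto and 5 fell and 3 rose in WT in 1 mM glucose. Against KO, 2 fell and 4 rose in Nuc, 4 fell and 2 rose in Cyto and 2 fell and 5 rose in WT in 10 mM glucose. The shares of all genes given above for each medium apply to this list too. Cdkn1a, which encodes p21, rose in all 3 lines in 1 mM glucose, by 0.68 ± 0.05 in Nuc, 0.78 ± 0.05 in Cyto and 1.23 ± 0.05 in WT (limma adjusted p = 4.16e-09, 5.7e-10 and 4.89e-12). It also rose in 10 mM glucose, by 0.45 in Nuc, 0.54 in Cyto and 0.53 in WT. Ccnd1, for cyclin D1, was -1.12 in Cyto and -0.91 in WT in 1 mM glucose and -0.54 in Nuc, -0.52 in Cyto and -1.18 in WT in 10 mM glucose. Other genes of this list moved the opposite way. Ccnd2, another D cyclin gene, was 0.86 in Nuc in 1 mM and 0.97 in 10 mM glucose. The CDK inhibitor gene Cdkn1b was -0.62 and -0.51 in Cyto in these media, and 0.40 in WT in 10 mM glucose. Cdkn2c, for another inhibitor, was -0.61 in Nuc and -1.24 in WT in 1 mM glucose.

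Some members lie on chromosomes whose genes differed between lines as a whole. Foxm1, Cdca3 and Ncapd2, the highest members in Nuc against Cyto in 10 mM glucose, all lie on chromosome 6. The median of all genes of chromosome 6 in Nuc against Cyto was 0.45 in 1 mM glucose (571 genes) and 0.49 in 10 mM glucose (613 genes), the highest of 20 chromosomes in each medium, and in Nuc against KO it was 0.23 and 0.36. With each chromosome's median removed in every library, an alternative chosen after seeing the data, the Nuc difference from Cyto in 1 mM glucose was 1.02 for Foxm1, 1.36 for Cdca3 and 1.14 for Ncapd2, and each remained past the threshold. In 10 mM glucose it shrank from 0.87 to 0.41 for Foxm1, from 1.16 to 0.71 for Cdca3 and from 1.09 to 0.63 for Ncapd2. Each was still past the threshold there. The same step turned the Nuc difference from KO in 10 mM glucose negative, to -0.29 for Foxm1, -0.12 for Cdca3 and -0.31 for Ncapd2. Kif4 lies on chromosome X, whose median was the lowest of the 20 in Nuc against KO (-0.56 in 1 mM and -0.53 in 10 mM glucose) and in WT against KO (-0.58 and -0.53). Its Nuc difference from KO in 1 mM glucose was -0.70 after centring, against -1.27 before. The median over the 50 genes became -0.48 in Nuc, -1.28 in Cyto and -0.75 in WT against KO in 1 mM glucose and -0.43 in Nuc, -0.74 in Cyto and -0.51 in WT in 10 mM glucose, where WT had been at -0.43. Smc4, Ccna2, Cenpe and Ect2 lie on chromosome 3. Its median in Cyto against KO was 0.35 in 1 mM glucose, the highest of the 20, and -0.01 in 10 mM glucose. On chromosome 18, with Kif20a and Cdc25c, the same medians were 0.26 and -0.01. After centring, the Cyto interaction was called lower in 1 mM glucose for 32 members and higher for 0, with a median of -0.58. The labels give no chromosome count of the lines, and the part of such differences in the results was not tested beyond this.

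**Figure D5:**
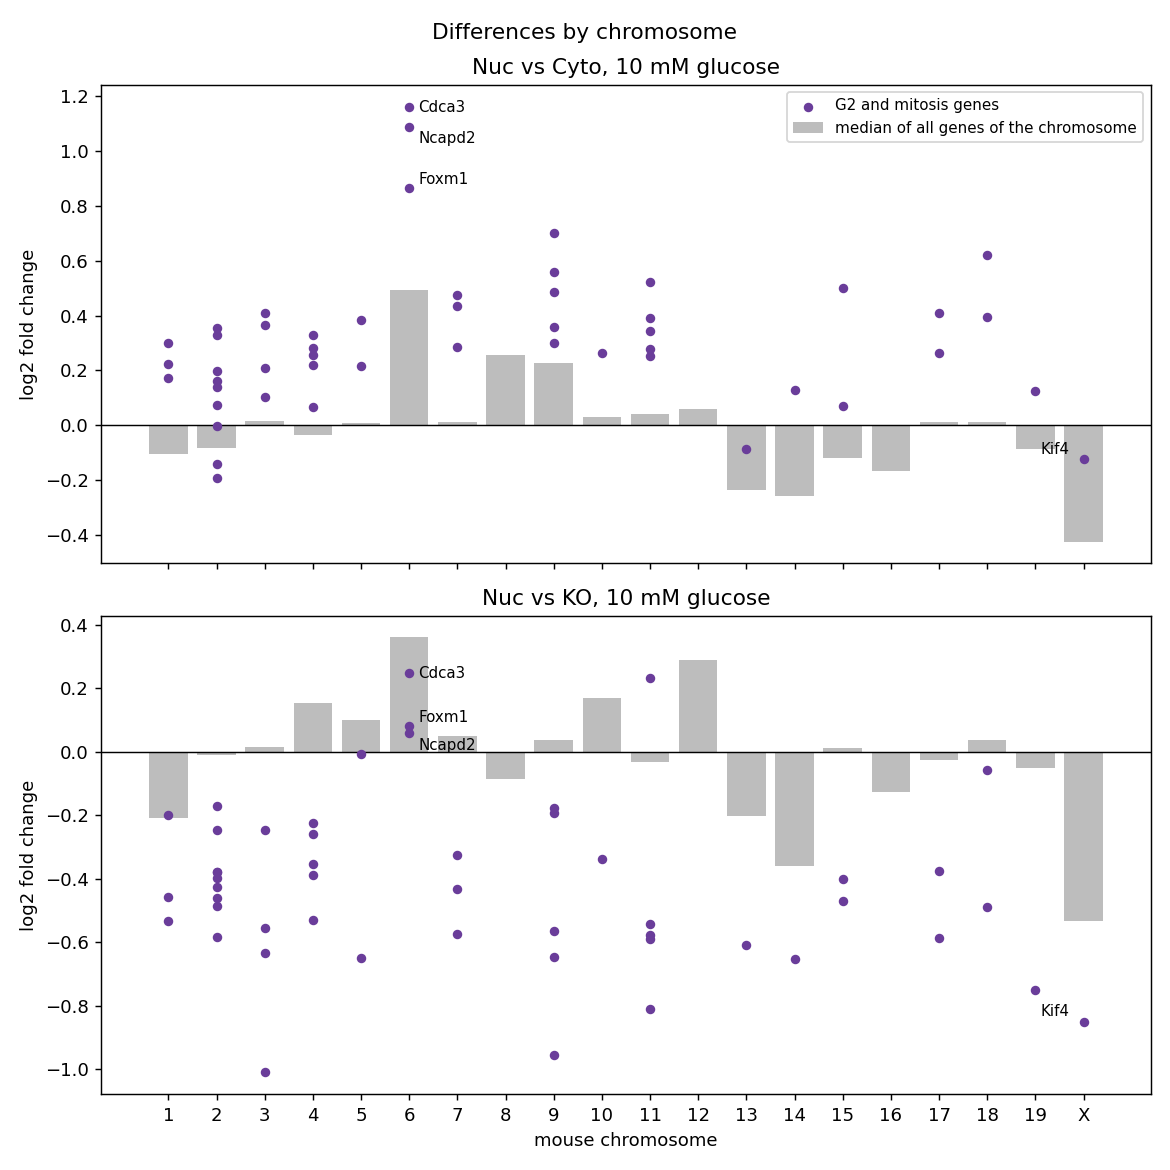
Log2 fold change of each of the 50 genes (points) by mouse chromosome in 10 mM glucose for Nuc against Cyto (top) and Nuc against KO (bottom), with the median of all genes of the chromosome as bars. Chromosome 6, which holds Foxm1, Cdca3 and Ncapd2, has the highest bar in both panels, and chromosome X, with Kif4, the lowest.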

How the data were processed

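Poly(A) selection and library type are not given in the sources used here. For the RNA-seq libraries, the submitters' processing notes name kallisto, edgeR, limma and GRCm39, without roles, versions or settings. The deposited values are normalised log2 expression in 1 table per medium, made by the authors. On the linear scale they sum to a near-constant total per library, as log2 CPM would. The lowest values were -3.59 in 1 mM and -3.29 in 10 mM glucose, and no value was added or filtered before testing. An entry without a symbol was left out (1 per medium).

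Group means were fitted per medium with limma 3.58.1 in R 4.3.3 (lmFit, eBayes with a trend), on 16 libraries in 1 mM and 15 in 10 mM glucose, with Benjamini-Hochberg adjustment over all genes of a table and a threshold of 0.05. Interactions between media were fitted over the genes in both tables. Errors beside log2 differences are limma standard errors. The fit was tested on simulated data with known changes. No 2 libraries held identical values. The members, role groups and lists were chosen with earlier results of these data known. Levels by library are given for 11 key members and for the 3 highest or lowest members where discussed, and genes outside the list are named by smallest adjusted p. Promoter sequences are RefSeq's, searched in Python 3.11.15. Alternatives covered the normalisation, the prior variance, weights, a minimum level, the replicate number as a block and leaving out each library.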

Additional observations from a re-analysis of the deposited data

Results flagged for a closer look

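In 4 of 84 sets of 4 libraries, 1 library lay far from the rest of its group. A chance rate of 1 in 20 would hold for independent sets. These sets share libraries, so that rate cannot be applied to them. The Top2a and Plk1 cases come from the same library, which also stood apart over the members. Nuc library 1 in 1 mM glucose read 7.22 for Top2a, where the other Nuc libraries read 7.60 to 7.65, and 4.72 for Plk1, where they read 5.34 to 5.46. KO library 2 in 10 mM glucose read 7.53 for Cdk1, where the others read 7.37 to 7.39. WT library 1 in 10 mM glucose read 6.72 for Ccnb1, where the others read 6.56 to 6.57.

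Among 44 tests of key members between media, 19 differences passed the limma interaction test. For Cyto against KO the difference in 1 mM minus that in 10 mM glucose was -0.42 for Top2a, -1.03 for Mki67, -0.58 for Ccnb1, -0.68 for Aurkb, -0.79 for Plk1, -0.90 for Kif11, -1.53 for Cenpf, -0.65 for Foxm1 and -0.83 for Mybl2 (limma adjusted p from 1.38e-05 for Kif11 to 0.00504 for Top2a). For WT against KO it was -0.38 for Ccnb1 (limma adjusted p = 0.0437). For Nuc against Cyto it was 0.50 for Top2a, 1.04 for Mki67, 0.41 for Ccnb1, 0.93 for Aurkb, 0.67 for Plk1, 0.79 for Kif11, 1.20 for Cenpf, 0.60 for Foxm1 and 0.89 for Mybl2 (limma adjusted p from 8.85e-06 for Aurkb to 0.0473 for Ccnb1). Batch and glucose cannot be told apart here.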

How the results depend on the processing

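The counts of members against KO, and of Nuc against Cyto, stayed within 1.5 times of those reported under every alternative run in either medium. The number called in Nuc against WT in 10 mM glucose was 10 as reported, 16 with array weights, 6 with each chromosome centred and 6 to 12 with 1 library left out. For Cyto against WT in 10 mM glucose it was 29 as reported and 19 to 25 with 1 library left out. The interaction of Nuc against KO with medium was called for 3 members as reported, 6 with array weights, 5 with the replicate block and 1 to 3 with 1 library left out (1 without KO library 4 of 1 mM glucose and 1 without KO library 2 of 10 mM glucose). Centring each chromosome, chosen after seeing the data, turned the sign of 38 of 800 single values, 4 of them called before or after: Smc4 in Cyto against WT in 1 mM glucose was -0.12 (limma adjusted p = 0.303; 0.28 as reported), and Foxm1, Cdca3 and Ncapd2 in Nuc against KO in 10 mM glucose were -0.29, -0.12 and -0.31 (limma adjusted p = 0.00743, 0.345 and 0.0025; 0.08, 0.25 and 0.06 as reported). The cause was not tested. Kif4 in 10 mM glucose, with no call either way, was 0.30 in Nuc against Cyto (-0.12 as reported) and -0.12 in Cyto against WT (0.30 as reported). Signs also turned for uncalled values in 18 of 800 with array weights, 8 with quantile normalisation, 5 with equal library medians, 1 with the replicate block and 9 of 300 without the libraries numbered 4. Over 7750 values of single members with 1 library left out, 313 lost and 94 gained a call, and 137 changed sign, none of them with a call before or after.

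Correlations of the deviations of same-numbered libraries had a median of 0.00142 over 24 pairs in 1 mM glucose (-0.182 to 0.136, 2 over 0.1) and 0.0523 over 21 pairs in 10 mM glucose (-0.0255 to 0.359, 5 over 0.1). Not every pair passed 0.1, so the numbers were not used as pairs. Of the 5 pairs, 4 were of libraries numbered 4. These libraries had the highest mean of the members in all 4 lines in 1 mM glucose and of DNA replication genes in all 4 lines in 10 mM glucose. Without them, 21 members were called in Nuc against Cyto in 10 mM glucose, against 30 as reported. With the replicate block, members called against KO numbered 38 in Nuc, 49 in Cyto and 47 in WT in 1 mM glucose, with 42 in Nuc, 47 in Cyto and 43 in WT in 10 mM glucose. A fit with Cyto library 3 in 10 mM glucose was not run, since that library was not analysed here. Depth is unknown, so no limit from counting error can be given.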
